A study of Homo sapiens with 15 samples.

Results

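The genes described here encode the enzymes of cholesterol synthesis and proteins that take up, carry, store or sense sterols. They are 29 named genes of 58395 gene rows in the count table, chosen by symbol with earlier results of these data known. They were matched to Ensembl gene IDs by GENCODE 29. Shares of all genes are set beside their counts as a description, not as an independent test. All 29 matched a row, and all 29 passed the low-count filter that kept 16889 genes. Of these genes, 20 act in synthesis and 9 in uptake and transport. RNA was sequenced from H1299, an established cell line from a human non-small cell lung carcinoma, to compare media that differed in glucose, glutamine and ammonium. Cells grew for 24 h in RPMI 1640 with 5% fetal bovine serum and were then kept for 12 h in RPMI 1640 without serum. That medium held 5 mM glucose and 4 mM NH4Cl (which supplies ammonium), 5 mM glucose and 4 mM glutamine, 4 mM glutamine, 5 mM glucose, or no glucose and no glutamine. The media are called glucose+NH4Cl, glucose+glutamine, glutamine alone, glucose alone and medium lacking both (neither, in the plots). Each of the 5 was measured in 3 poly(A) libraries, so there were 15. Removal of serum was shared by all 5 media, so no medium supplied serum lipoproteins, and no library from before the change of medium was analysed here. The labels speak of triplicate cells and name no separate cultures or days, so a p-value here reflects just the spread among these libraries, and that spread may be technical.

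Library totals lay between 14914127 and 19938691 counts. The scaling factors of edgeR's trimmed mean of M values (TMM) were 0.793 in all 3 libraries of medium lacking both and 1.006 to 1.086 in the other 12, and the 10 most counted genes held 12.3% to 12.4% of counts in that medium and 5.54% to 7.09% elsewhere. The keratin genes KRT8 and KRT18 carried nearly all of the summed epithelial markers (453 to 1260 CPM, 4 of 6 past the filter). KRT7 and KRT19 had means of 1.09 to 2.51 CPM, and EPCAM and CDH1 did not pass the filter. Leukocyte markers (0 of 5 past the filter) summed to 0.177 to 1.25 CPM, endothelial markers (0 of 3) to 0.115 to 1.28 CPM and fibroblast markers (2 of 4) to 1.03 to 2.99 CPM. Levels below are counts relative to the TMM-scaled library total (CPM), the 3 values of a medium stand in the order of the replicate numbers, ± after a CPM value is the SD of 3 libraries, and ± after a log2 change is the standard error of the fit. A gene is said to have risen or fallen where its adjusted p was under 0.05 by edgeR's quasi-likelihood test with Benjamini-Hochberg adjustment over the 16889 genes.

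Cells make cholesterol from acetyl-CoA through mevalonate and isoprenoid diphosphates to farnesyl diphosphate, which squalene synthase joins into squalene, and squalene is folded into lanosterol and trimmed to cholesterol. When membranes of the endoplasmic reticulum are rich in sterol, INSIG and SCAP proteins hold the SREBP transcription factors there. When sterol is low, SREBPs move to the Golgi, are cut by the proteases encoded by MBTPS1 and MBTPS2, and turn on genes of sterol and fatty acid synthesis. NF-Y and SP1 are factors known to act beside SREBPs at many of these promoters. Farnesyl diphosphate also feeds dolichol, ubiquinone and protein prenylation, so the first steps of the pathway serve more than sterols.

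The 29 genes together were most abundant with glucose+glutamine and least abundant with glucose alone. Their summed level was 2406 ± 25.2 CPM with glucose+NH4Cl, 3761 ± 27.7 CPM with glucose+glutamine, 1518 ± 7.65 CPM with glutamine alone, 1178 ± 19.5 CPM with glucose alone and 1859 ± 11.2 CPM in medium lacking both. The 3 libraries of each medium lay closer to each other than to those of any other medium. Of the 29 genes, 17 had their highest mean with glucose+glutamine, against 18.6% of all genes tested, and 22 their lowest mean with glucose alone, against 18.3%. The rank of medium lacking both depends on its TMM factors, and the orders of single genes below are given by that scaling. That medium was not tested against glucose+NH4Cl. Scaled by library totals alone, SQLE, STARD4, STARD3 and SOAT1 were higher with glucose alone than in that medium (log2 0.29, 0.33, 0.14 and 0.32). In bulk samples fewer expressing cells and less RNA per cell cannot be told apart.

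**Figure D1:**
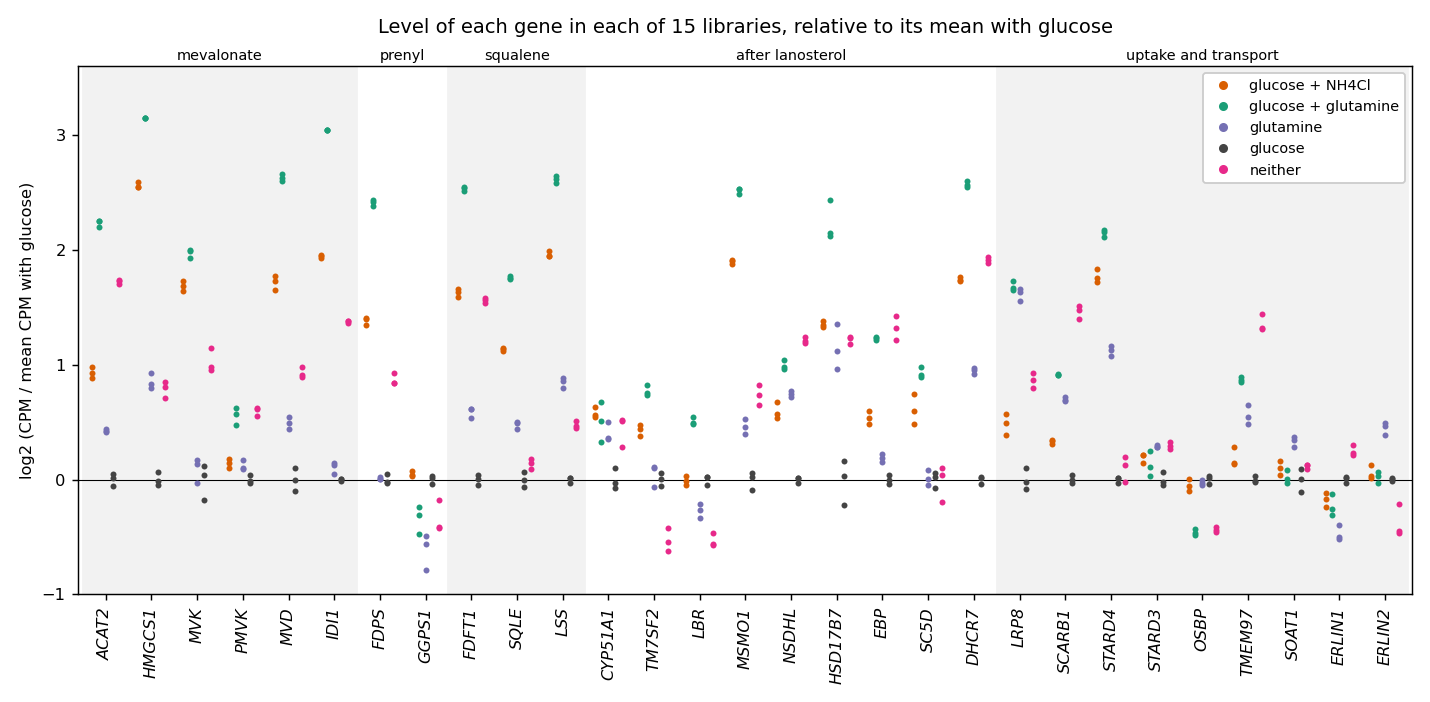
Level of each of the 29 genes in each of the 15 libraries, as the log2 ratio of its CPM to its mean CPM with glucose alone (vertical axis), with genes in pathway order (horizontal axis) and a colour for each medium. HMGCS1 and IDI1 lie highest with glucose+glutamine, with means of 365 ± 0.687 and 289 ± 0.642 CPM, while GGPS1, OSBP and ERLIN1 lie below the line there.

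With NH4Cl added to glucose, 23 of the 29 genes rose, 1 fell and 5 did not pass the test, where 12.7% of all genes tested rose and 16.9% fell. Of these, 12 rose at least 2-fold, against 0.385% of all genes, and 0 fell at least 2-fold, against 0.201%. The genes' median log2 change was 0.60, beside -0.013 over all genes tested. Libraries of the 2 media did not overlap in 25 of the 29 genes, and in 39.9% of all genes tested.

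With glutamine added to glucose, 24 genes rose, 3 fell and 2 did not pass, where 34.2% of all genes rose and 33.7% fell. At least 2-fold rises were seen in 15 of them, against 5.87% of all genes, and at least 2-fold falls in 0, against 6.31%. Their median log2 change was 1.23, beside 0.0047 over all genes. This comparison shares its glucose libraries with the addition of NH4Cl, so their values stand side by side here without a count of overlap taken as a result.

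Set against glucose+glutamine directly, glucose+NH4Cl had 22 of the 29 genes lower, 2 higher and 5 that did not pass, where 33.4% of all genes were lower and 31.2% higher. At least 2-fold higher were 0 genes, against 4.94% of all genes, and at least 2-fold lower were 4, against 4.51%: ACAT2 (log2 -1.30 ± 0.0314), LRP8 (-1.20 ± 0.0538), IDI1 (-1.10 ± 0.0274) and FDPS (-1.03 ± 0.0276). The median log2 difference was -0.58, beside -0.012 over all genes. In 20 genes, 16 of them of synthesis, the level with glucose+NH4Cl was called both above glucose alone and below glucose+glutamine, as it was in 6.37% of all genes.

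**Figure D2:**
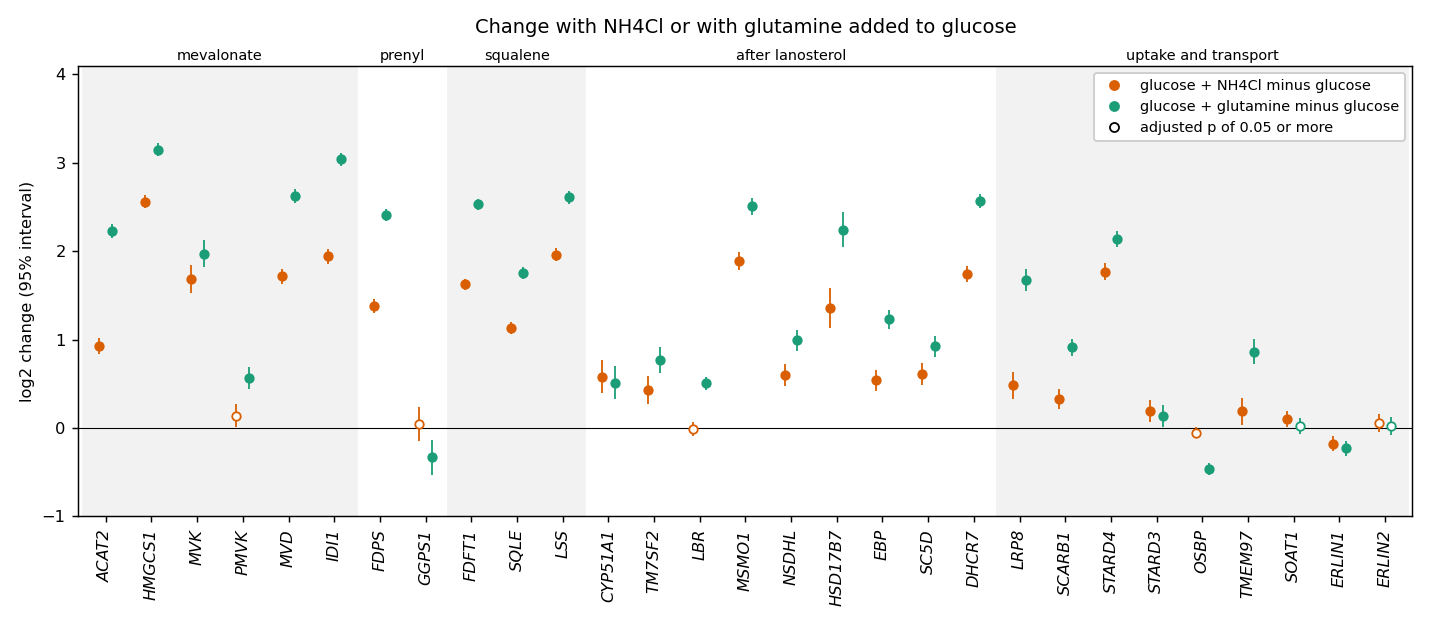
Log2 change of each gene with NH4Cl or with glutamine added to glucose (vertical axis, 95% interval of the fit), genes in pathway order, open points where the adjusted p was 0.05 or more. Glutamine points lie above NH4Cl points in most synthesis genes, as for IDI1 (1.94 with NH4Cl and 3.04 with glutamine), and the points of STARD3, SOAT1, ERLIN1 and ERLIN2 lie between -0.23 and 0.19 in both.

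Promoter sequence was examined because so many of these genes moved together, and the motifs were chosen with earlier results of these data known. RefSeq windows from 250 bases before to 50 after a start site (GRCh38.p14) were found for 23 of the 29 genes; ACAT2, FDFT1, SQLE, SCARB1, ERLIN1 and ERLIN2 had none. The letters CCAAT, the core recognised by NF-Y, were sought on both strands, and 18 of the 23 genes held them in at least 1 window, against 42.8% of 10993 tested genes with a window and 34.6% of all 35116 windows. The SP1 core GGGCGG stood in 21 of the 23, against 76.6% of tested genes. The E-box CACGTG stood in 2, against 12.6%. A strict sterol response element, TCACNCCAC, matched in 0 of 23 and in 1.39% of tested genes; that says only that these 9 letters are not in these windows. After that result 6 looser patterns were tried, each on both strands. TCACNCCA matched in 2 of the 23 genes, MSMO1 and MVK, against 4.68% of tested genes, and CACCCCA in 5, against 10.4%. TCACNNCA matched in 4, against 13.6%, and TCACCCCA in 1, against 1.88%. CACNCCA followed by C or T matched in 3, against 10.5%. TCACN, then C or T, then CA, then C or T, matched in 1, against 3.82%. Each motif was counted whether or not it overlapped another.

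The stretches printed here were chosen after the genes' values were seen, so they are examples and no test of how matches go with changes. Each comes from the window nearest the annotated gene start and is the longest run before the start site outside GENCODE exons. Runs longer than 150 bases were cut to their last 150. CCAAT or its reverse complement is in capitals, and stretches are printed 5′ to 3′ on the gene's strand. HMGCS1, at chr5:43313513-43313662 (minus strand), MVD, at chr16:88663162-88663297 (minus strand), and MSMO1, at chr4:165327473-165327622 (plus strand), were among the genes that rose most. Their stretches hold 1, 3 and 3 matches, and the whole windows 2, 3 and 4.

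HMGCS1: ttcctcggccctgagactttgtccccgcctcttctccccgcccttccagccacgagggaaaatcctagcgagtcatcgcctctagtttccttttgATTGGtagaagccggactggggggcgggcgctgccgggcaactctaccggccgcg
MVD: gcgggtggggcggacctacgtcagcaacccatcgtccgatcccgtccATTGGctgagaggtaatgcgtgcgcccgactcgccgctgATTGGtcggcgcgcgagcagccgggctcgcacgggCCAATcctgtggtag
MSMO1: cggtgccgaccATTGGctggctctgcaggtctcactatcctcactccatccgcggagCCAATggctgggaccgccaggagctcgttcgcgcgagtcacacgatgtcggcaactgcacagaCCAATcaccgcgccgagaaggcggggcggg

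The next stretches belong to pairs of genes with related products. FDPS, at chr1:155308616-155308747 (plus strand), has 1 match in the stretch and 3 in the window. GGPS1, at chr1:235327010-235327159 (plus strand), has 0 in both, and 1 in another of its 3 windows. STARD4, at chr5:111512591-111512740 (minus strand), has 2 in both and STARD3, at chr17:39636915-39637064 (plus strand), 0 in both.

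FDPS: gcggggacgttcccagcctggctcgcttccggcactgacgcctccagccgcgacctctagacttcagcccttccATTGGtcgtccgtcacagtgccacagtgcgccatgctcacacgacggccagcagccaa
GGPS1: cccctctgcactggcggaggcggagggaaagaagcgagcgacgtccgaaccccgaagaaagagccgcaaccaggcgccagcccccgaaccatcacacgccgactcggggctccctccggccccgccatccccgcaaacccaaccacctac
STARD4: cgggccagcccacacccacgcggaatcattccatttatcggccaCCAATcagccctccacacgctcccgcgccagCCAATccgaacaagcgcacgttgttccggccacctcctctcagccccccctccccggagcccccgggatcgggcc
STARD3: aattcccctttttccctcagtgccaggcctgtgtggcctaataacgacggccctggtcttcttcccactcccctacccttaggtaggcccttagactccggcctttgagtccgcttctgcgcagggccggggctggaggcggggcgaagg

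LBR, at chr1:225428926-225429071 (minus strand), and LRP8, at chr1:53328071-53328220 (minus strand), hold 0 matches in the stretch and in the window, and both rose with glutamine. OSBP holds 5 matches in its window and fell with glutamine.

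LBR: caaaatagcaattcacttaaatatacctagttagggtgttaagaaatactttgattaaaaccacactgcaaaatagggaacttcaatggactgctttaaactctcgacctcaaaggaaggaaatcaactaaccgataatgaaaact
LRP8: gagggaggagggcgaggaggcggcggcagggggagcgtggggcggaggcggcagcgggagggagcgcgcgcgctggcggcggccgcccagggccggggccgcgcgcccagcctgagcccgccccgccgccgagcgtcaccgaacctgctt

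**Figure D3:**
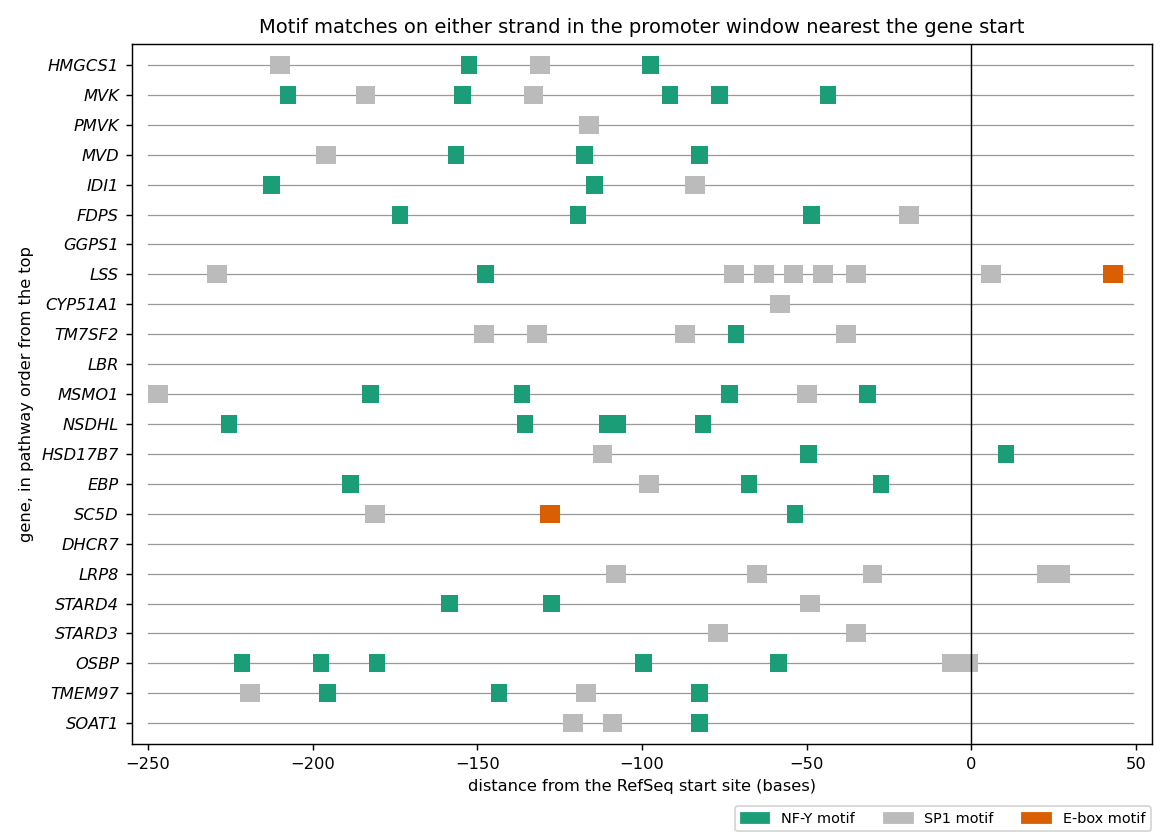
Matches of the NF-Y core (CCAAT), the SP1 core (GGGCGG) and the E-box (CACGTG) on either strand in the RefSeq window nearest the annotated start of each of 23 genes; the horizontal axis is the distance from the start site in bases and each row is a gene in pathway order. MVK, NSDHL and OSBP have 5 NF-Y matches each, while PMVK, GGPS1, CYP51A1, LBR, DHCR7, LRP8 and STARD3 have 0 in the window shown.

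In the mevalonate arm 5 of 6 genes rose with NH4Cl, against 12.7% of all genes, and 6 of 6 with glutamine, against 34.2%. PMVK stood apart from the rest by its small changes. HMGCS1 encodes the cytosolic synthase of hydroxymethylglutaryl-CoA (ENSG00000112972, chromosome 5, 43289395 to 43313512, GRCh38). HMGCS1 had 248, 241 and 240.1 CPM with glucose+NH4Cl, 366, 364 and 365 with glucose+glutamine, 71.5, 73.6 and 78.3 with glutamine alone, 39.8, 40.8 and 43.1 with glucose alone and 74.3, 67.4 and 72 in medium lacking both. Its libraries with glucose+glutamine lay above all others, those with glucose+NH4Cl came next, those with glutamine alone and in medium lacking both overlapped, and those with glucose alone were lowest. HMGCS1 rose by log2 2.56 ± 0.034 with NH4Cl (5.89-fold) and by 3.15 ± 0.0329 with glutamine (8.85-fold), the largest change of the 29 genes in both comparisons.

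IDI1 encodes the isomerase that makes the allylic building block of all isoprenoids (ENSG00000067064, chromosome 10, 1039152 to 1049170). IDI1 had 136, 136 and 134 CPM with glucose+NH4Cl, 289, 289 and 289.9 with glucose+glutamine, 36.5, 38.8 and 38.5 with glutamine alone, 35.3, 34.9 and 35.4 with glucose alone and 91.6, 90.7 and 91.6 in medium lacking both. No 2 media overlapped, and medium lacking both lay above each single nutrient. IDI1 rose by 1.94 ± 0.0367 with NH4Cl and by 3.04 ± 0.0336 with glutamine. MVD encodes the decarboxylase that makes isopentenyl diphosphate (ENSG00000167508, chromosome 16, 88651935 to 88663161). MVD had 127, 121 and 131 CPM with glucose+NH4Cl, 243, 237 and 233 with glucose+glutamine, 54.2, 52.1 and 56 with glutamine alone, 35.9, 41.3 and 38.4 with glucose alone and 72.3, 75.7 and 71.4 in medium lacking both. Its media fell in the same order as those of IDI1, again with no overlap. MVD rose by 1.72 ± 0.0383 with NH4Cl and by 2.62 ± 0.0352 with glutamine.

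PMVK encodes phosphomevalonate kinase (ENSG00000163344, chromosome 1, 154924734 to 154936991). PMVK had 27.1, 27.8 and 28.5 CPM with glucose+NH4Cl, 39, 35.2 and 37.6 with glucose+glutamine, 28.3, 27 and 27 with glutamine alone, 24.8, 26 and 25 with glucose alone and 38.7, 38.9 and 37.1 in medium lacking both. Its highest libraries, with glucose+glutamine and in medium lacking both, overlapped, and its means spanned 1.51-fold in all, where those of HMGCS1 spanned 8.85-fold. PMVK rose by 0.56 ± 0.0553 with glutamine. With NH4Cl its change of 0.14 ± 0.0591 did not pass (95% interval 0.0096 to 0.27, adjusted p = 0.0583), although the libraries did not overlap; it passed with DESeq2 size factors (adjusted p = 0.0427), with library totals alone (0.039) and in a fit of the compared media alone (0.0364). ACAT2, the cytosolic thiolase that joins acetyl-CoA units, averaged 72.7 ± 2.4 CPM with glucose+NH4Cl, 179 ± 3.83 with glucose+glutamine, 51.3 ± 0.464 with glutamine alone, 38.1 ± 1.38 with glucose alone and 126 ± 1.76 in medium lacking both. Its order differed from that of HMGCS1, since medium lacking both lay above glucose+NH4Cl. MVK, which encodes mevalonate kinase, averaged 34.4 ± 1 CPM with glucose+NH4Cl, 41.9 ± 1.04 with glucose+glutamine, 11.4 ± 0.83 with glutamine alone, 10.7 ± 1.13 with glucose alone and 21.8 ± 1.62 in medium lacking both. ACAT2 rose by 0.93 ± 0.0406 with NH4Cl and 2.23 ± 0.035 with glutamine, and MVK by 1.69 ± 0.0709 and 1.97 ± 0.0678. ACAT2 overlaps the more abundant gene TCP1 on the opposite strand (10812 to 30116 counts, ACAT2 625 to 3277), and MVK overlaps MMAB. With the strand setting not given in the sources used here, reads of such pairs cannot be told apart.

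The prenyl synthases FDPS and GGPS1 went opposite ways with glutamine. FDPS makes farnesyl diphosphate (ENSG00000160752, chromosome 1, 155308748 to 155320666) and GGPS1 adds a further unit to give the geranylgeranyl group used in protein prenylation (ENSG00000152904, chromosome 1, 235327350 to 235344532). FDPS had 148, 142 and 147 CPM with glucose+NH4Cl, 302, 298 and 291 with glucose+glutamine, 56, 56.1 and 56.8 with glutamine alone, 54.9, 57.7 and 55.2 with glucose alone and 106, 100.2 and 99.8 in medium lacking both. Its libraries with glutamine alone and with glucose alone overlapped, and those of the other media each lay apart and above them. FDPS rose by 1.38 ± 0.0339 with NH4Cl and 2.41 ± 0.0314 with glutamine. GGPS1 had 14, 14.3 and 13.8 CPM with glucose+NH4Cl, 11.5, 9.77 and 10.9 with glucose+glutamine, 9.65, 7.84 and 9.2 with glutamine alone, 13.2, 13.8 and 13.7 with glucose alone and 10.2, 10.1 and 12 in medium lacking both. Its libraries with glucose+NH4Cl and with glucose alone overlapped and were the highest, and those with glutamine alone were the lowest. GGPS1 fell by 0.33 ± 0.0892 on the log2 scale with glutamine (adjusted p = 0.000495 by edgeR's quasi-likelihood test with Benjamini-Hochberg adjustment), which did not pass against a 1.2-fold change, and its change with NH4Cl, 0.05 ± 0.086, did not pass (95% interval -0.14 to 0.24). GGPS1 was low, at 129 to 248 counts a library, and overlaps ARID4B and TBCE.

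All 3 genes of the squalene steps rose at least 2-fold in both additions, against 0.385% of all genes with NH4Cl and 5.87% with glutamine. FDFT1 encodes squalene synthase, the first enzyme committed to sterols (ENSG00000079459, chromosome 8, 11795573 to 11839309). FDFT1 had 243, 237 and 248 CPM with glucose+NH4Cl, 459, 457 and 447 with glucose+glutamine, 114, 120.3 and 120.1 with glutamine alone, 76.2, 80.7 and 79.1 with glucose alone and 228, 232 and 235 in medium lacking both. No 2 media overlapped, and medium lacking both lay just below glucose+NH4Cl. FDFT1 rose by 1.63 ± 0.0291 with NH4Cl and 2.53 ± 0.0279 with glutamine. SQLE encodes squalene epoxidase, a rate-limiting enzyme (ENSG00000104549, chromosome 8, 124998497 to 125022283). SQLE had 178, 177 and 175 CPM with glucose+NH4Cl, 276, 270.1 and 272 with glucose+glutamine, 114, 109.7 and 114 with glutamine alone, 76.9, 80.5 and 84.6 with glucose alone and 91.5, 86 and 89 in medium lacking both. Its libraries with glutamine alone lay above those in medium lacking both, the reverse of FDFT1. SQLE rose by 1.13 ± 0.0313 and 1.76 ± 0.03.

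LSS encodes lanosterol synthase, which closes the sterol rings (ENSG00000160285, chromosome 21, 46188141 to 46228824). LSS had 212, 211 and 217 CPM with glucose+NH4Cl, 341, 335 and 327 with glucose+glutamine, 101, 99.2 and 95.1 with glutamine alone, 53.7, 55.5 and 55.3 with glucose alone and 75.6, 74.7 and 78.1 in medium lacking both. It followed the order of SQLE, with no overlap between media. LSS rose by 1.96 ± 0.0323 with NH4Cl and 2.61 ± 0.0311 with glutamine. Per kilobase of annotated exon, FDFT1 (87.3 CPM per kb), FDPS (79.9) and HMGCS1 (77.6) had the highest levels of the 29 genes with glucose+glutamine. With glucose alone the highest were OSBP (26.6 CPM per kb), PMVK (19.7) and SQLE (18.7). The length counts every annotated exon of a gene, not the transcripts expressed here, so these ranks depend in part on the annotation.

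After lanosterol, 8 of 9 genes rose with NH4Cl, against 12.7% of all genes, and 9 of 9 with glutamine, against 34.2%. The changes ranged widely. DHCR7 encodes the sterol reductase of the last step of a branch (ENSG00000172893, chromosome 11, 71428193 to 71452868). DHCR7 had 91.7, 93.9 and 91.9 CPM with glucose+NH4Cl, 167, 164 and 161 with glucose+glutamine, 52.2, 54 and 53.4 with glutamine alone, 26.9, 28.1 and 27.9 with glucose alone and 102, 104 and 106 in medium lacking both. By TMM-scaled CPM no 2 media overlapped, and medium lacking both stood between glucose+glutamine and glucose+NH4Cl. Its place above glucose+NH4Cl depends on the TMM factors. DHCR7 rose by 1.74 ± 0.0411 with NH4Cl and 2.57 ± 0.0372 with glutamine. MSMO1 encodes the oxidase that starts removal of methyl groups from lanosterol derivatives (ENSG00000052802, chromosome 4, 165327623 to 165343160). MSMO1 had 85.4, 84.9 and 83.4 CPM with glucose+NH4Cl, 131, 131 and 127 with glucose+glutamine, 32.8, 31.3 and 30 with glutamine alone, 23.2, 21.4 and 23.8 with glucose alone and 40.3, 35.7 and 37.9 in medium lacking both. Its media lay apart in the order seen for IDI1. MSMO1 rose by 1.89 ± 0.0465 and 2.51 ± 0.043.

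HSD17B7 encodes the ketosteroid reductase of the same demethylation (ENSG00000132196, chromosome 1, 162790702 to 162812817). HSD17B7 had 15.4, 15 and 14.8 CPM with glucose+NH4Cl, 26.2, 25.7 and 31.8 with glucose+glutamine, 15.1, 12.8 and 11.5 with glutamine alone, 5.05, 6.04 and 6.62 with glucose alone and 13.8, 13.4 and 14 in medium lacking both. Glucose alone was the lowest and glucose+glutamine the highest without overlap, while the libraries with glutamine alone overlapped those with glucose+NH4Cl and in medium lacking both. HSD17B7 rose by 1.35 ± 0.101 with NH4Cl and 2.25 ± 0.0896 with glutamine, at 92 to 595 counts a library. NSDHL, the dehydrogenase between MSMO1 and HSD17B7 in that sequence, averaged 35.1 ± 1.72 CPM with glucose+NH4Cl, 46.2 ± 1.42 with glucose+glutamine, 38.9 ± 0.708 with glutamine alone, 23.2 ± 0.411 with glucose alone and 53.7 ± 0.969 in medium lacking both. By TMM-scaled CPM NSDHL had its highest level in medium lacking both. With library totals alone glucose+glutamine lay above that medium (log2 0.23). NSDHL rose by 0.60 ± 0.0566 with NH4Cl and 1.00 ± 0.0531 with glutamine.

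TM7SF2 and LBR encode sterol reductases that act on the same double bond, and LBR also anchors chromatin at the inner nuclear membrane. TM7SF2 (ENSG00000149809, chromosome 11, 65111845 to 65116384) had 22.9, 21.9 and 23.4 CPM with glucose+NH4Cl, 28.5, 29.9 and 28.2 with glucose+glutamine, 16.1, 18.2 and 18.2 with glutamine alone, 16.9, 16.2 and 17.6 with glucose alone and 11.6, 12.6 and 11 in medium lacking both. Its libraries with glutamine alone and with glucose alone overlapped, and medium lacking both was lowest. TM7SF2 rose by 0.43 ± 0.0707 with NH4Cl and 0.77 ± 0.0671 with glutamine, and the rise with NH4Cl missed the test against a 1.2-fold change. LBR (ENSG00000143815, chromosome 1, 225401502 to 225428925) had 89.2, 84.1 and 86.2 CPM with glucose+NH4Cl, 123, 122 and 127 with glucose+glutamine, 75.1, 72.6 and 69.3 with glutamine alone, 84.5, 88.6 and 88.3 with glucose alone and 59, 63 and 58.6 in medium lacking both. Its libraries with glucose+NH4Cl and with glucose alone overlapped, and those with glucose+glutamine lay above all others. LBR rose by 0.51 ± 0.0318 with glutamine, and its change with NH4Cl, -0.01 ± 0.0341, did not pass (95% interval -0.086 to 0.066). TM7SF2 overlaps VPS51, which had 1337 to 1989 counts where TM7SF2 had 139 to 528, and reads in the shared stretch are uncertain.

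EBP, the sterol isomerase gene, averaged 41.4 ± 1.68 CPM with glucose+NH4Cl, 66.8 ± 0.768 with glucose+glutamine, 32.4 ± 0.776 with glutamine alone, 28.5 ± 0.789 with glucose alone and 71.3 ± 5.18 in medium lacking both. SC5D, the sterol desaturase gene, averaged 39.7 ± 3.56 CPM with glucose+NH4Cl, 49.3 ± 1.54 with glucose+glutamine, 26.3 ± 1.24 with glutamine alone, 26 ± 1.2 with glucose alone and 25.7 ± 2.68 in medium lacking both, so that glucose+NH4Cl and glucose+glutamine lay above the other 3 media, which overlapped. EBP rose by 0.54 ± 0.0528 with NH4Cl and 1.23 ± 0.0478 with glutamine, and SC5D by 0.61 ± 0.0572 and 0.92 ± 0.0544. CYP51A1, the lanosterol demethylase gene, averaged 16.8 ± 0.534 CPM with glucose+NH4Cl, 16 ± 1.9 with glucose+glutamine, 14.9 ± 0.872 with glutamine alone, 11.2 ± 0.694 with glucose alone and 15.2 ± 1.38 in medium lacking both. It rose by 0.58 ± 0.0847 and 0.51 ± 0.0844, but at 173 to 317 counts, with up to 54 counts in a single pseudogene (CYP51A1P2), its level is uncertain.

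**Figure D4:**
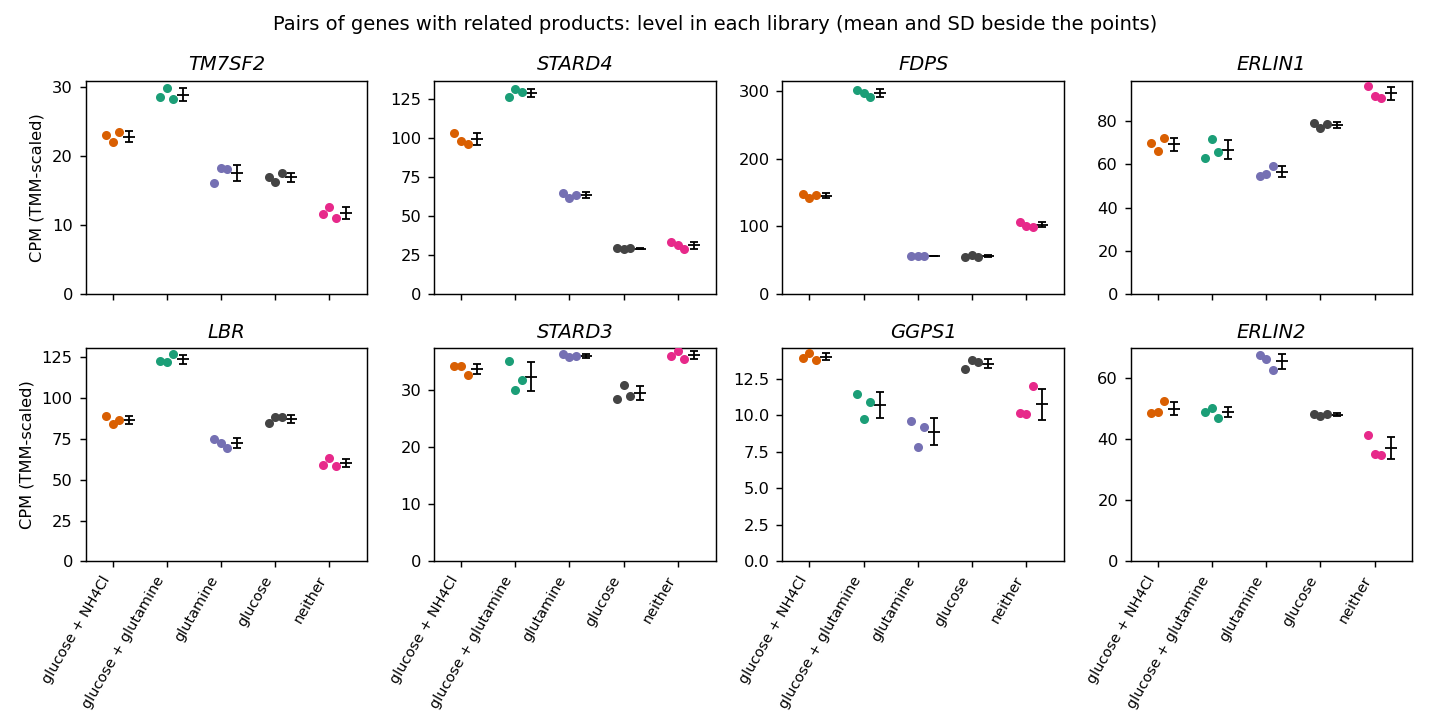
Level of 8 genes in each library (CPM, vertical axes from 0; mean and SD beside the 3 points of each medium), as pairs with related products, one above the other. FDPS and STARD4 are highest with glucose+glutamine, while GGPS1 and STARD3 are not, and ERLIN1 and ERLIN2 have opposite orders for glutamine alone and medium lacking both (neither).

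Of the 9 uptake and transport genes, 6 rose with NH4Cl, against 12.7% of all genes, and 5 with glutamine, against 34.2%. Only STARD4 rose at least 2-fold in both. The rises of SCARB1, STARD3, TMEM97 and SOAT1 with NH4Cl, and of STARD3 with glutamine, did not pass against a 1.2-fold change. STARD4 encodes a soluble carrier that moves cholesterol between membranes (ENSG00000164211, chromosome 5, 111496033 to 111512590). STARD4 had 103, 98.2 and 95.8 CPM with glucose+NH4Cl, 126, 131 and 129 with glucose+glutamine, 64.9, 61.3 and 63.5 with glutamine alone, 29.3, 28.5 and 29.4 with glucose alone and 33.3, 31.6 and 28.6 in medium lacking both. Libraries with glucose+NH4Cl and glucose+glutamine were highest, those with glutamine alone lay between, and those with glucose alone and in medium lacking both overlapped. STARD4 rose by 1.77 ± 0.0423 with NH4Cl and 2.14 ± 0.0403 with glutamine. STARD3 encodes a related sterol-binding protein of late endosomes (ENSG00000131748, chromosome 17, 39637065 to 39663484). STARD3 had 34.1, 34.2 and 32.6 CPM with glucose+NH4Cl, 35, 30 and 31.7 with glucose+glutamine, 36.3, 35.7 and 35.8 with glutamine alone, 28.4, 30.8 and 29 with glucose alone and 36, 36.8 and 35.4 in medium lacking both. Its means spanned 1.23-fold, the smallest span of the 29 genes. STARD3 rose by 0.19 ± 0.0555 with NH4Cl (adjusted p = 0.00325) and by 0.13 ± 0.0553 with glutamine (adjusted p = 0.0243), where the libraries overlapped. The call with glutamine was lost by the DESeq2 Wald test (adjusted p = 0.109), without the low-count filter (0.0576), without glucose replicate 1 or 3 (log2 0.11 and 0.13) and without glucose+glutamine replicate 1 (0.074).

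LRP8 encodes a lipoprotein receptor that binds apolipoprotein E (ENSG00000157193, chromosome 1, 53242364 to 53328070). LRP8 had 24.4, 23.1 and 21.4 CPM with glucose+NH4Cl, 52.2, 54.4 and 51.4 with glucose+glutamine, 48, 50.9 and 51.7 with glutamine alone, 17.6, 16.2 and 15.5 with glucose alone and 31.2, 30 and 28.5 in medium lacking both. Both media with glutamine were highest and overlapped. By TMM-scaled CPM glucose+NH4Cl lay below medium lacking both, an order that depends on the TMM factors. LRP8 rose by 0.48 ± 0.0675 with NH4Cl and 1.68 ± 0.0569 with glutamine. SCARB1 encodes a scavenger receptor for high density lipoprotein (ENSG00000073060, chromosome 12, 124776856 to 124882668). SCARB1 had 40.7, 41.7 and 41.5 CPM with glucose+NH4Cl, 62.4, 61.6 and 61.8 with glucose+glutamine, 52.7, 54 and 53.3 with glutamine alone, 32.2, 32.8 and 33.8 with glucose alone and 91.5, 86.8 and 93.8 in medium lacking both. No 2 media overlapped, and medium lacking both was highest. SCARB1 rose by 0.33 ± 0.0494 and 0.91 ± 0.0452. TMEM97, which encodes a sterol-binding protein of the endoplasmic reticulum, averaged 20.5 ± 1.17 CPM with glucose+NH4Cl, 32.8 ± 0.506 with glucose+glutamine, 26.5 ± 1.55 with glutamine alone, 18 ± 0.322 with glucose alone and 46 ± 2.34 in medium lacking both and had the same order of media. TMEM97 rose by 0.87 ± 0.0616 with glutamine and by 0.19 ± 0.0684 with NH4Cl (adjusted p = 0.026). Its call with NH4Cl was lost without glucose replicate 2 or 3 (log2 0.18 each) and without glucose+NH4Cl replicate 1 (0.14).

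OSBP encodes a protein that trades cholesterol for a phosphoinositide where the endoplasmic reticulum meets the Golgi (ENSG00000110048, chromosome 11, 59574398 to 59616144). OSBP had 147, 141 and 136 CPM with glucose+NH4Cl, 109, 106 and 105 with glucose+glutamine, 142, 143 and 145 with glutamine alone, 142, 149 and 147 with glucose alone and 107, 108 and 109.9 in medium lacking both. By TMM-scaled CPM it fell into 2 sets without overlap: glucose+NH4Cl, glutamine alone and glucose alone were high, and glucose+glutamine and medium lacking both were low. With library totals alone OSBP was higher with glucose+glutamine than in medium lacking both (log2 0.42). OSBP fell by 0.46 ± 0.0305 on the log2 scale with glutamine, and its change with NH4Cl, -0.051 ± 0.0297, did not pass (95% interval -0.12 to 0.015). SOAT1 encodes the enzyme that esterifies cholesterol for storage (ENSG00000057252, chromosome 1, 179293714 to 179358680). SOAT1 had 65, 62.3 and 59.6 CPM with glucose+NH4Cl, 56.8, 58.2 and 61.5 with glucose+glutamine, 73.6, 70.7 and 74.8 with glutamine alone, 58.2, 53.9 and 61.9 with glucose alone and 61.9, 63.3 and 63.4 in medium lacking both. Only glutamine alone lay clear of the others. SOAT1 changed by 0.023 ± 0.0415 with glutamine, which did not pass (95% interval -0.07 to 0.12). Its rise of 0.10 ± 0.0415 with NH4Cl (adjusted p = 0.0461) was lost by DESeq2 (adjusted p = 0.0697), without the low-count filter (0.0582), without glucose replicate 1 or 2 (log2 0.11 and 0.056) and without glucose+NH4Cl replicate 1 or 2 (0.073 and 0.10).

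ERLIN1 and ERLIN2 encode partner proteins of cholesterol-rich domains of the endoplasmic reticulum. ERLIN1 (ENSG00000107566, chromosome 10, 100150094 to 100188334) had 69.6, 66.1 and 72.1 CPM with glucose+NH4Cl, 63, 71.8 and 65.6 with glucose+glutamine, 54.7, 55.3 and 59.4 with glutamine alone, 79.1, 76.7 and 78.8 with glucose alone and 96.4, 91.6 and 90.7 in medium lacking both. Medium lacking both was highest and glutamine alone lowest. ERLIN1 fell by 0.18 ± 0.0381 with NH4Cl and by 0.23 ± 0.0379 with glutamine on the log2 scale, and both falls missed the test against a 1.2-fold change. ERLIN2 (ENSG00000147475, chromosome 8, 37736601 to 37759101) had 48.4, 48.9 and 52.4 CPM with glucose+NH4Cl, 48.9, 50.1 and 47 with glucose+glutamine, 67.4, 66 and 62.6 with glutamine alone, 48.1, 47.5 and 48.3 with glucose alone and 41.3, 35.1 and 34.7 in medium lacking both. Here glutamine alone was highest and medium lacking both lowest. ERLIN2 did not pass with either addition (log2 0.057 ± 0.0463 with NH4Cl, 95% interval -0.046 to 0.16; 0.02 ± 0.0459 with glutamine, -0.082 to 0.12). ERLIN1 overlaps CHUK on the same strand, with 436 to 662 counts.

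With glucose added to glutamine, 23 genes rose, 4 fell and 2 did not pass, where 32.6% of all genes rose and 33% fell. Rises of at least 2-fold were seen in 14, against 5.61% of all genes, and 0 fell at least 2-fold, against 4.64%. IDI1 rose most (log2 2.93 ± 0.0331), before FDPS (2.40 ± 0.0314) and HMGCS1 (2.29 ± 0.03). The genes that fell were all of transport: ERLIN2 (-0.43 ± 0.0434), OSBP (-0.43 ± 0.0305), SOAT1 (-0.31 ± 0.0398) and STARD3 (-0.15 ± 0.0531). CYP51A1 (0.11 ± 0.0798) and LRP8 (0.067 ± 0.0459) did not pass. In 21 genes, 18 of them of synthesis, glucose+glutamine was called above each nutrient alone, as it was in 20.2% of all genes; the 2 calls share the libraries with both nutrients. With library totals alone 25 genes rose and 3 fell, where 6764 of all genes rose and 4359 fell, against 5502 and 5571 with TMM. The rise of GGPS1 (0.28 ± 0.0966) was lost without glutamine replicate 2 (log2 0.19) or glucose+glutamine replicate 1 (0.23), and the fall of STARD3 without glucose+glutamine replicate 2 (-0.11) and with library totals alone (-0.055).

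Set against medium lacking both, each nutrient alone came with lower levels of many synthesis genes. With glucose alone 22 of the 29 genes were lower, 5 higher and 2 did not pass, where 37.9% of all genes were lower and 39.9% higher; 10 were at least 2-fold lower, against 9.81% of all genes. DHCR7 was lowest in proportion (log2 -1.91 ± 0.0416), then ACAT2 (-1.72 ± 0.0381) and FDFT1 (-1.56 ± 0.0297). The 5 higher genes were LBR (0.53 ± 0.0381), TM7SF2 (0.53 ± 0.0846), OSBP (0.44 ± 0.0317), ERLIN2 (0.37 ± 0.0512) and GGPS1 (0.34 ± 0.0946). With glutamine alone 15 genes were lower, 9 higher and 5 did not pass, where 35.8% of all genes were lower and 37% higher, and 3 were at least 2-fold lower, against 6.26%. ACAT2 (-1.29 ± 0.036), IDI1 (-1.27 ± 0.0395) and EBP (-1.14 ± 0.0481) were those 3. STARD4 (1.01 ± 0.0477), ERLIN2 (0.81 ± 0.0485) and LRP8 (0.75 ± 0.0539) were the most raised.

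These counts depend on the scaling, and the TMM factors of medium lacking both lay apart from the rest. With library totals alone the median of all genes moved to 0.49 for glucose alone and 0.37 for glutamine alone. For glucose alone the genes described here split into 16 lower and 11 higher, where 3533 of all genes were lower and 10145 higher. For glutamine alone they split into 13 lower and 14 higher, where 3312 of all genes were lower and 9531 higher. SQLE, STARD3, SOAT1 and ERLIN1 were lower with glucose alone (log2 -0.14, -0.29, -0.11 and -0.25) and turned higher by that scaling, while LSS (-0.47) and CYP51A1 (-0.45) lost their calls, at -0.036 and -0.010. With glutamine alone GGPS1 and MSMO1 (-0.28 and -0.28) lost their calls, at 0.064 and 0.066. The call of SOAT1 was lost without glucose replicate 2 (-0.071), and that of GGPS1 without replicate 3 of medium lacking both (-0.20) or glutamine replicate 2 (-0.19).

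With glucose+glutamine against medium lacking both, 18 genes were higher, 7 lower and 4 did not pass, where 37% of all genes were higher and 35.3% lower, and 11 were at least 2-fold higher, against 12.6%, and 0 at least 2-fold lower, against 4.2%. HMGCS1 (2.35 ± 0.0315), LSS (2.14 ± 0.0308) and STARD4 (2.04 ± 0.0423) were the most raised. The lower genes were SCARB1 (-0.55 ± 0.0393), TMEM97 (-0.49 ± 0.0541) and ERLIN1 (-0.48 ± 0.0385), of which TMEM97 and ERLIN1 lost their calls with library totals alone, together with NSDHL (-0.22), STARD3 (-0.16), SOAT1 (-0.092) and EBP (-0.091), which turned higher by that scaling. Library totals gave 26 higher and 1 lower, where 10866 of all genes were higher and 2405 lower. They moved the median of all genes to 0.49. In 8 synthesis genes, ACAT2, MVK, MVD, IDI1, FDPS, FDFT1, MSMO1 and DHCR7, each nutrient alone was called below medium lacking both and the 2 together above it, as was seen in 1.77% of all genes, although the call of MSMO1 with glutamine alone was lost by library totals (log2 0.066). The calls of EBP and SOAT1 were near the threshold (adjusted p = 0.0452 and 0.0461 by edgeR's quasi-likelihood test with Benjamini-Hochberg adjustment) and were lost in a fit of the compared media alone. EBP was also lost without replicate 2 or 3 of medium lacking both (log2 -0.043 and -0.094) or without glucose+glutamine replicate 1, 2 or 3 (-0.086, -0.096 and -0.10). SOAT1 was also lost without replicate 2 or 3 of medium lacking both (-0.093 and -0.088) or without glucose+glutamine replicate 1 or 2 (-0.071 and -0.087), and STARD3 without glucose+glutamine replicate 2 (-0.12).

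The change with glutamine was set against the same change without glucose, by the interaction of both nutrients in the fit. The interaction was positive for 23 genes, negative for 3 and did not pass for 3, where it was positive for 36.8% of all genes and negative for 38%; at least 2-fold positive were 18, against 15.5%, and at least 2-fold negative 0, against 20.1%. IDI1 had the largest interaction, log2 4.30 ± 0.0524, as it rose by 3.04 ± 0.0336 with glutamine where glucose was present and changed by -1.27 ± 0.0395 where it was absent. DHCR7 (3.53 ± 0.0528), ACAT2 (3.52 ± 0.0505) and FDFT1 (3.50 ± 0.0397) followed. GGPS1 (-0.052 ± 0.136, 95% interval -0.35 to 0.25), TM7SF2 (0.19 ± 0.109, -0.052 to 0.43) and STARD3 (0.14 ± 0.078, -0.033 to 0.31) did not pass; STARD3 passed without glucose replicate 2 (0.18) or glucose+glutamine replicate 2 (0.19) and was called negative with library totals alone (-0.20). OSBP (-0.87 ± 0.044), ERLIN2 (-0.79 ± 0.0671) and SOAT1 (-0.19 ± 0.0587) were negative. LBR (0.24 ± 0.0508) and CYP51A1 (0.55) lost their calls with library totals alone, at -0.096 and 0.22, and GGPS1 was called negative, at -0.39. That scaling moved the median of all genes to -0.37. It gave 21 positive and 5 negative of the genes described here, where 4324 of all genes were positive and 8497 negative.

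**Figure D5:**
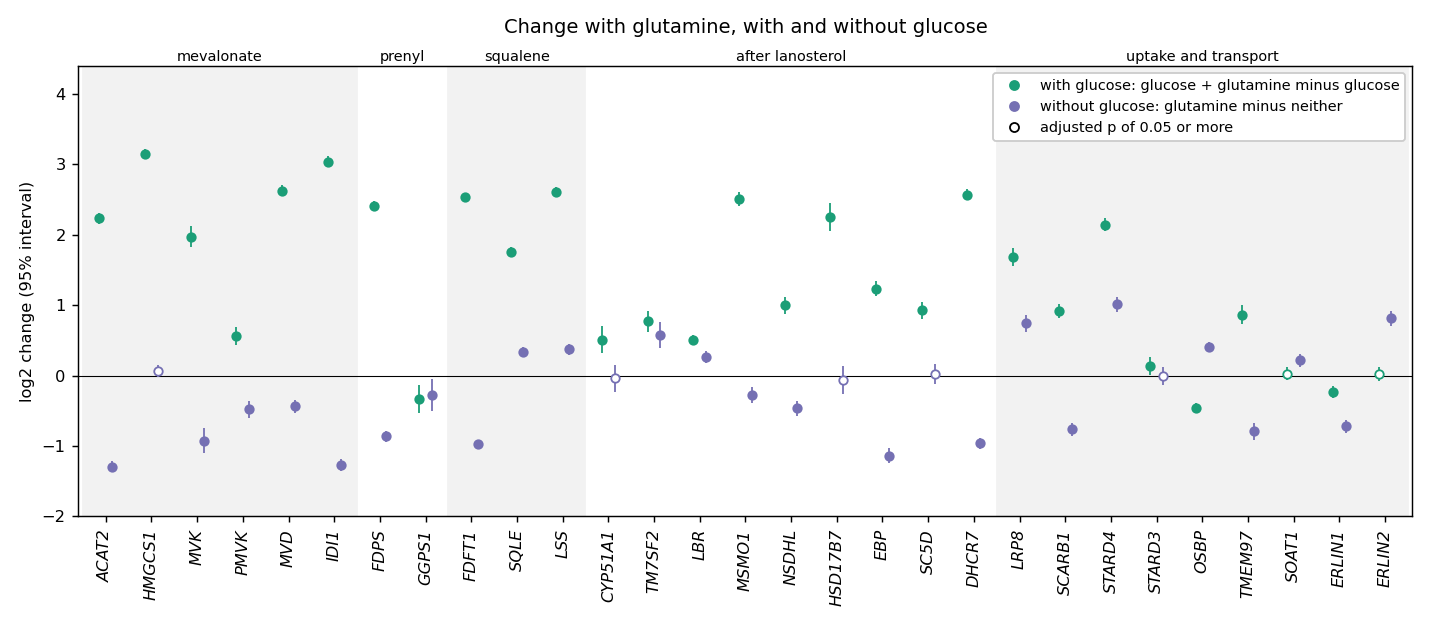
Log2 change of each gene with glutamine where glucose was present (glucose+glutamine minus glucose alone) and where it was absent (glutamine alone minus medium lacking both), with 95% intervals of the fit (vertical axis) and genes in pathway order; open points had an adjusted p of 0.05 or more. The 2 points of IDI1 lie at 3.04 and -1.27, while those of TM7SF2 lie at 0.77 and 0.58.

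The genes that control the pathway were read from a separate list of 7. With NH4Cl 3 of the 7 rose and 1 fell, where 12.7% of all genes rose and 16.9% fell. With glutamine 4 rose and 1 fell, where 34.2% of all genes rose and 33.7% fell. INSIG1, whose protein retains SREBPs, rose by 2.98 ± 0.0361 with NH4Cl and 3.39 ± 0.0352 with glutamine, and SREBF1, which encodes an SREBP, by 1.03 ± 0.0303 and 1.29 ± 0.0299. SREBF2, which encodes the SREBP most tied to sterol synthesis, rose by 1.02 ± 0.0291 with NH4Cl and 0.92 ± 0.0291 with glutamine. MBTPS2 fell by 0.16 ± 0.0346 with NH4Cl and by 0.69 ± 0.0365 with glutamine on the log2 scale.

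Of 10 genes that use the same isoprenoids for other products, 0 rose and 2 fell with NH4Cl, and 4 rose and 4 fell with glutamine, shares near those of all genes (12.7% and 16.9% with NH4Cl, 34.2% and 33.7% with glutamine). With NH4Cl the largest changes were PGGT1B (-0.22 ± 0.0566), COQ2 (-0.13 ± 0.0683, which did not pass) and RABGGTB (-0.11 ± 0.0296), and with glutamine RABGGTB (-0.97 ± 0.0319), PDSS1 (0.79 ± 0.11) and FNTA (-0.58 ± 0.0443). Of 15 other sterol transfer genes, 3 rose and 3 fell with NH4Cl, and 6 rose and 5 fell with glutamine, also near the shares of all genes. STARD5 (1.22 ± 0.259), OSBPL6 (-1.04 ± 0.0528) and OSBPL5 (0.56 ± 0.121) changed most with glutamine. OSBPL6 (-0.37 ± 0.049) and GRAMD1B (0.27 ± 0.0598) changed most among those that passed with NH4Cl. Counts were low for STARD5 (10 to 58 a library), OSBPL5 (51 to 192) and PDSS1 (84 to 293).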

How the data were processed

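RNA sequencing measured gene expression in 15 libraries of H1299 cells, 3 for each of 5 media. Per the labels' protocols, poly(A) RNA was selected and a directional (stranded) kit was used. The authors deposited raw counts per Ensembl gene, with no normalization. The tools listed by the submitters' processing notes are featureCounts, Subread 1.5.1 and HISAT2 2.1.0, and the build is GRCh38.p12. How each was used, the strand setting and how multi-mapping reads were counted: not given in the sources used here. GENCODE 29 gave names and positions for 58275 of 58395 IDs and lacked 120.

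Counts were scaled by TMM, filtered by filterByExpr (16889 genes) and fitted in edgeR 4.0.16 (R 4.3.3), whose robust quasi-likelihood test was used two-sided, in a single fit of 15 libraries with a mean per medium and 10 residual degrees of freedom. The common biological coefficient of variation was 0.0221. Benjamini-Hochberg adjustment ran over all genes of each of 7 comparisons of media and the interaction, with a threshold of 0.05; a second call also asked for at least 2-fold. A floor of 3 counts lay at 0.15 to 0.237 CPM and covers counting error only. Alternatives used DESeq2 1.42.0 and edgeR, as listed in the closing section. Replicates of a medium differed by more than sampling noise (chi-square per degree of freedom 1.22 to 2.36; 0 identical pairs). The steps were tested on simulated data. Promoter windows came from RefSeq (GRCh38.p14), and 6 looser sterol element patterns were added after the strict one had matched none of the genes. The members, lists and motifs were chosen with earlier results of these data known. All 29 genes are named; values in every library are given for the 3 genes with the widest range of means in each step, for those not called higher in either addition, and for 4 pairs of related genes. From the other lists up to 3 genes with the largest changes are named, and 1 gene of these lists is not reported here.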

Additional observations from a re-analysis of the deposited data

Results flagged for a closer look

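The effect of glutamine differed between cells with and without glucose in 26 of the 29 genes, by the interaction term of edgeR's quasi-likelihood test (adjusted p under 0.05), and in 74.8% of all genes tested. Values are the log2 change with glutamine in the presence of glucose minus that in its absence. In the mevalonate arm they were ACAT2 3.52, HMGCS1 3.09, MVK 2.90, PMVK 1.04, MVD 3.06 and IDI1 4.30. FDPS followed with 3.27, and the squalene steps with FDFT1 3.50, SQLE 1.42 and LSS 2.24. After lanosterol they were CYP51A1 0.55, LBR 0.24, MSMO1 2.79, NSDHL 1.46, HSD17B7 2.31, EBP 2.36, SC5D 0.90 and DHCR7 3.53. Among uptake and transport genes they were LRP8 0.93, SCARB1 1.68, STARD4 1.13, OSBP -0.87, TMEM97 1.66, SOAT1 -0.19, ERLIN1 0.49 and ERLIN2 -0.79. With library totals alone LBR and CYP51A1 lost their calls, at -0.096 and 0.22. Single libraries that stand apart were not sought, since no group holds more than 3 libraries.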

How the results depend on the processing

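The number of the 29 genes called in each of the 8 comparisons stayed within 1.5 times of its value in every alternative run. With 29 genes a rise past that limit was not possible, and the count ignores direction. With library totals alone the split against medium lacking both moved from 5 higher and 22 lower to 11 and 16 for glucose alone. For glucose+glutamine it moved from 18 higher and 7 lower to 26 and 1. Of 232 gene values each, DESeq2 size factors changed 3 calls, no low-count filter 2, a filter of at least 1 CPM in 3 libraries 2, the DESeq2 Wald test 2, a fit of the compared media alone 4, and a test against a 1.2-fold change 35. Library totals alone ended 9 calls, added 16 and turned 8 to the other direction, and 18 values in all changed sign. Under that scaling the reversed log2 values were, for glucose alone against medium lacking both, SQLE 0.29, STARD4 0.33, STARD3 0.14, SOAT1 0.32 and ERLIN1 0.19. They were GGPS1 0.064, CYP51A1 0.30, MSMO1 0.066, HSD17B7 0.28 and STARD3 0.34 for glutamine alone, PMVK 0.41, NSDHL 0.23, EBP 0.35, STARD3 0.28, OSBP 0.42 and SOAT1 0.35 for glucose+glutamine against the same medium, LBR -0.10 and STARD3 -0.20 for the interaction. That scaling drops the TMM factors, and all these comparisons use medium lacking both.

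Leaving out 1 library at a time gave 26 to 27 called genes with glutamine added to glucose, 22 to 24 with NH4Cl added, 24 to 25 with NH4Cl in place of glutamine, 26 to 27 with glucose added to glutamine, 26 to 28 for glucose alone, 23 to 25 for glutamine alone and 22 to 25 for glucose+glutamine against medium lacking both, and 26 to 27 for the interaction. Of 3480 such gene values 26 calls were lost, 7 gained and 0 reversed; those lost were of GGPS1, EBP, TMEM97, STARD3 and SOAT1. A replicate block changed 0 of 232 calls, and the comparison of NH4Cl with glucose kept 24 called genes. Libraries with equal replicate numbers did not vary together (30 pairs, median r = -0.00054; 60 pairs with different numbers, 0.0010; 1 of 15 libraries was closest to its own number), so they were not paired. Summing FDPS, CYP51A1, HSD17B7 and TMEM97 with their named pseudogenes, chosen after seeing the data, added 1 call, CYP51A1 with glucose added to glutamine (log2 0.20). Depth limited GGPS1 (129 to 248 counts), CYP51A1 (173 to 317) and HSD17B7 (92 to 595) most.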
